A study of Rattus norvegicus with 3 samples.

Results

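Cells gated as conventional dendritic cells rich in class II antigen presentation transcripts were examined in single-cell RNA libraries of diabetic rat wound skin. They were selected on their own counts of unique molecular identifiers (UMIs, one per captured RNA molecule). A barcode was a member when it held at least 20 UMIs of Cd74 and a UMI of Flt3 or Ccl17. It also had no UMI of the 8 genes C1qa, C1qb, C1qc, Cd163, Ccr7, Siglech, Cd3e and Pdgfra. The names members and dendritic cells stand below for barcodes that met this rule, which may hold other cell types. Of 41236 barcodes with at least 500 UMIs, at least 300 genes and at most 20% mitochondrial UMIs, 120 were members, or 0.291%. The study sequenced 1 library for each of 3 treatments of 15 mm full-thickness skin wounds, taken on day 7. The CO hydrogel wound received hyaluronic acid hydrogel made to give off carbon monoxide, the hydrogel wound received hyaluronic acid hydrogel, and the third wound was labelled untreated. The protocol text that all samples share speaks of hydrogel treatment for every wound, and the treatment label of each sample was followed. All libraries came from wild-type male SD rats that were given streptozotocin, a toxin of insulin-producing cells, at 65 mg/kg, and that had blood glucose over 16.7 mM. The rats were 7 to 9 weeks old at injection, and the labels do not state how many animals entered a library. With 1 library per treatment, the treatment and the library cannot be told apart, so values are set side by side with intervals that cover counting error only.

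Conventional dendritic cells take up antigen in tissues, load peptides onto class II molecules and carry them to T cells. They depend on the growth factor receptor Flt3 and fall into a cDC1 branch, which cross-presents antigen of dead cells and carries Clec9a and Xcr1, and a cDC2 branch, which presents mainly to helper T cells. Cd74, the invariant chain, escorts class II molecules through the cell, and Ccl17 is a chemokine that draws cells with the receptor Ccr4. Clec10a is a lectin of cDC2 cells that macrophages also carry.

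The class II genes share a promoter layout with an X box and a Y box, read by the factors RFX and NF-Y and by the co-activator Ciita. The windows of 70 bases below are shown because these class II chains differed between the dendritic cells and macrophages of the same wounds. Capitals mark the Y box letters CTGATTGG and the X box letters AACNGATG, and each window is written 5′ to 3′ in the direction of the gene, from the RefSeq promoter table of build GRCr8.
RT1-Da, chr20:4515318-4515387, plus strand: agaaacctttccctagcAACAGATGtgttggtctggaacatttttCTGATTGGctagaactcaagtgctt
RT1-Db1, chr20:4560221-4560290, minus strand: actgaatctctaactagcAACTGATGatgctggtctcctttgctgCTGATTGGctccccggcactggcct
RT1-Ba, chr20:4576966-4577035, plus strand: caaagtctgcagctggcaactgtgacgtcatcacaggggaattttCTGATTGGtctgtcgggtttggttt
RT1-Bb, chr20:4604158-4604227, minus strand: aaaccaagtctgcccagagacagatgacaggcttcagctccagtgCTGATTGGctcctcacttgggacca
RT1-DOa, chr20:4758509-4758578, minus strand: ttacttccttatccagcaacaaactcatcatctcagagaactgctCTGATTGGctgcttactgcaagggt
RT1-Ha, chr20:4772232-4772301, minus strand: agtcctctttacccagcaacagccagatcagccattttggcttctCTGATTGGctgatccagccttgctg

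Searched on both strands, the Y box letters were in the promoters of 6 of the 7 class II chain genes looked up, the exception being RT1-DOb. They were in 3.50% of all 33469 promoters of 300 bases in that table. The X box letters were in 3 of the 7, RT1-Da, RT1-Db1 and RT1-DOb, and in 2.58% of all promoters. The motifs do not overlap, and the X box began 28 bases upstream of the Y box in RT1-Da and 27 bases upstream in RT1-Db1. The Y box began 52 bases before the annotated start of RT1-Da, 83 before that of RT1-Db1, 46 before that of RT1-Ba, 64 before that of RT1-Bb, 110 before that of RT1-DOa and 115 before that of RT1-Ha. Neither motif was in the promoters of Ccl17, Ccl22, Clec9a or Flt3. These matches describe letters in the windows.

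The CO hydrogel library held 63 members among 14925 kept barcodes, the hydrogel library 31 among 14346, and the untreated library 26 among 11965. Their shares were 0.422% (exact 95% interval 0.325 to 0.540) in CO hydrogel, 0.216% (0.147 to 0.307) in hydrogel and 0.217% (0.142 to 0.318) in untreated. The interval of the CO hydrogel library did not overlap that of the hydrogel library or that of the untreated library. The kept barcodes had a median of 5820 UMIs in CO hydrogel, 5622.5 in hydrogel and 2655 in untreated, so the rule was also run on barcodes thinned to 3000 UMIs. That left out 4144, 4984 and 6624 shallower barcodes of the CO hydrogel, hydrogel and untreated libraries, and gave 0.631%, 0.214% and 0.412%. These were 68 of 10781, 20 of 9362 and 22 of 5341 barcodes. Thinning can remove UMIs of the required and of the excluded genes, so they were not all the same cells as the members. The untreated share then had an interval that overlapped both of the others. The intervals of CO hydrogel and untreated also overlapped under a stricter cell filter and outside the neutrophil gate, and those of CO hydrogel and hydrogel overlapped with the Cd74 threshold at 10 or at 40 UMIs. Neutrophils by the gate used here were 0.965% of the CO hydrogel library, 6.27% of the hydrogel library and 10.2% of the untreated library. Outside that gate the member shares were 0.426%, 0.231% and 0.242% in the same order. How the cell make-up and depth of a library bear on these shares was not tested beyond those values.

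**Figure D1:**
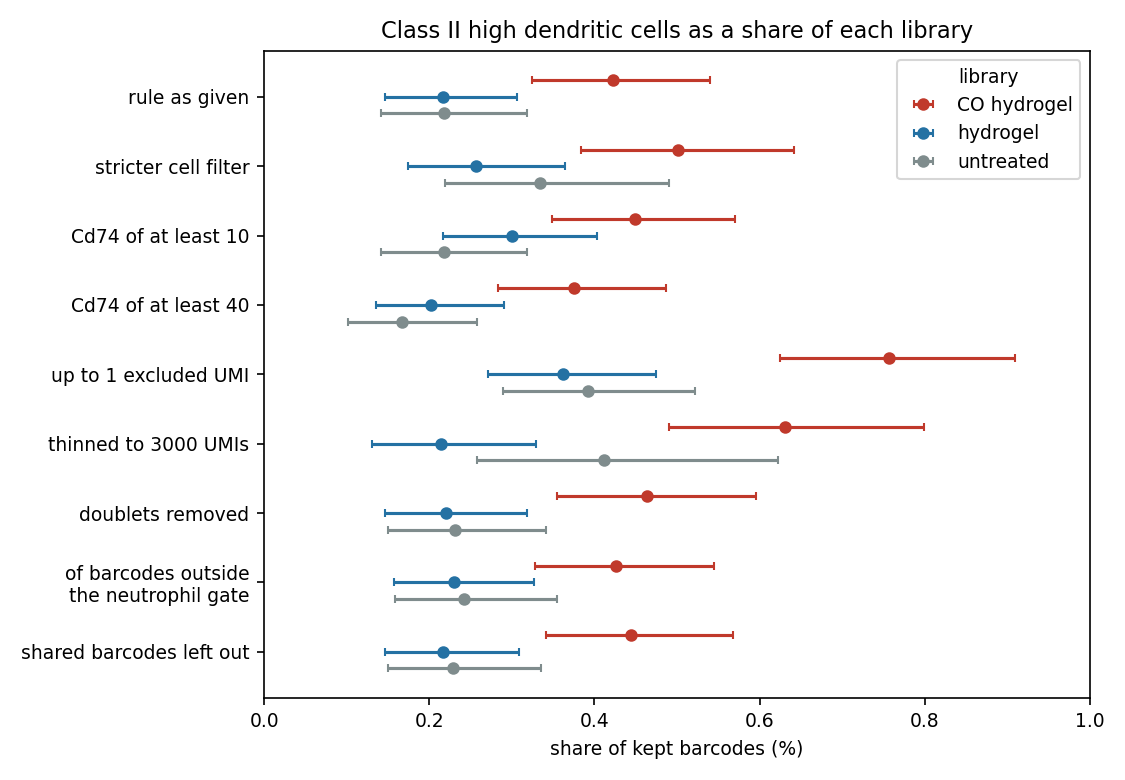
Share of kept barcodes that met the rule (horizontal axis, percent) in each library under the rule as given and under 8 other settings (vertical axis). Points are shares and bars are exact 95% intervals that cover counting error only. The CO hydrogel library had the highest share in each setting drawn, at 0.422% under the rule as given against 0.216% in hydrogel and 0.217% in untreated.

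The rule took few of the class II high barcodes. Barcodes with at least 20 Cd74 UMIs numbered 1702 in CO hydrogel, 2205 in hydrogel and 808 in untreated, and a UMI of Flt3 or Ccl17 was in 230, 128 and 97 of them. The exclusion genes then removed 167, 97 and 71 barcodes, of which 135, 59 and 60 had a UMI of a C1q chain, and 50, 21 and 21 were removed for a single UMI. Near the Cd74 threshold, 2 members of CO hydrogel, 1 of hydrogel and 0 of untreated had 20 to 24 UMIs. Just outside it, 3, 6 and 0 barcodes that met the other conditions had 15 to 19 UMIs. Members had a median of 132 Cd74 UMIs (21 to 347) in CO hydrogel, 107 (23 to 319) in hydrogel and 72 (25 to 293) in untreated, against median depths of 6697, 8708 and 7776.5 UMIs. The summed member counts were 433796 UMIs in CO hydrogel, 279663 in hydrogel and 232442 in untreated, and levels below are UMIs divided by these sums and multiplied by 1e+06 (CPM). Between libraries, 453 barcodes were shared by CO hydrogel and hydrogel, 581 by CO hydrogel and untreated and 345 by hydrogel and untreated. Of the members, 1 hydrogel cell had a shared barcode, and 6 members had a doublet score in the top share set for their library.

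Ccl17 brought in most members. A UMI of Ccl17 without Flt3 was in 43 CO hydrogel, 17 hydrogel and 13 untreated members, Flt3 without Ccl17 was in 12, 11 and 11, and both were in 8, 3 and 2. Of the 11 Flt3-only members of the untreated library, each rested on a single Flt3 UMI. Since the rule used these counts, the Ccl17 levels of 859.9 CPM in CO hydrogel, 372 CPM in hydrogel and 245 CPM in untreated, and the Flt3 levels of 73.8, 82.2 and 55.9 CPM, are descriptions of the selection. Members carried 35.4% of all Ccl17 UMIs of the kept CO hydrogel barcodes, 50% of those in hydrogel and 9.76% of those in untreated. Among 2048, 821 and 706 fibroblasts, a cell type that should lack these genes, Ccl17 was in 1, 0 and 1 cells and Flt3 in 1, 0 and 0 cells of the CO hydrogel, hydrogel and untreated libraries.

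The given markers were checked against the rest of the data. Clec10a was not used by the rule and stood at 1065 CPM in CO hydrogel, 447 CPM in hydrogel and 452 CPM in untreated members. Macrophages with C1q transcripts stood at 1548, 383 and 778 CPM of Clec10a, and members held 1.58%, 1.26% and 1.05% of the Clec10a UMIs of their libraries. Zbtb46, a transcription factor of conventional dendritic cells, was in 7 of the 120 members, and Itgax, the CD11c chain, was in 63. Xcr1, the cDC1 chemokine receptor, had 3, 1 and 2 UMIs in CO hydrogel, hydrogel and untreated members. Defining B cell genes Cd79a and Ms4a1 were at 0 in all 3 libraries. Of the 21 macrophage markers 15 were detected in at least 1 library, and each library had 7 at 0, of which 4 by the rule. The sets of 7 were not the same throughout. The list summed to 1865, 3554 and 5773 CPM in CO hydrogel, hydrogel and untreated members, against 59415, 56045 and 44481 CPM in C1q macrophages. Monocyte markers were nearer, with 14394, 11768 and 18306 CPM in members against 15437, 17542 and 20501 CPM in C1q macrophages. Of 9 monocyte genes tested between these populations, 2 rose and 2 fell, with a median log2 difference of -0.01. In Ccr7 mature dendritic cells the monocyte markers summed to less, at 3031, 3223 and 6731 CPM in CO hydrogel, hydrogel and untreated. How many members were monocyte-like was not tested.

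**Figure D2:**
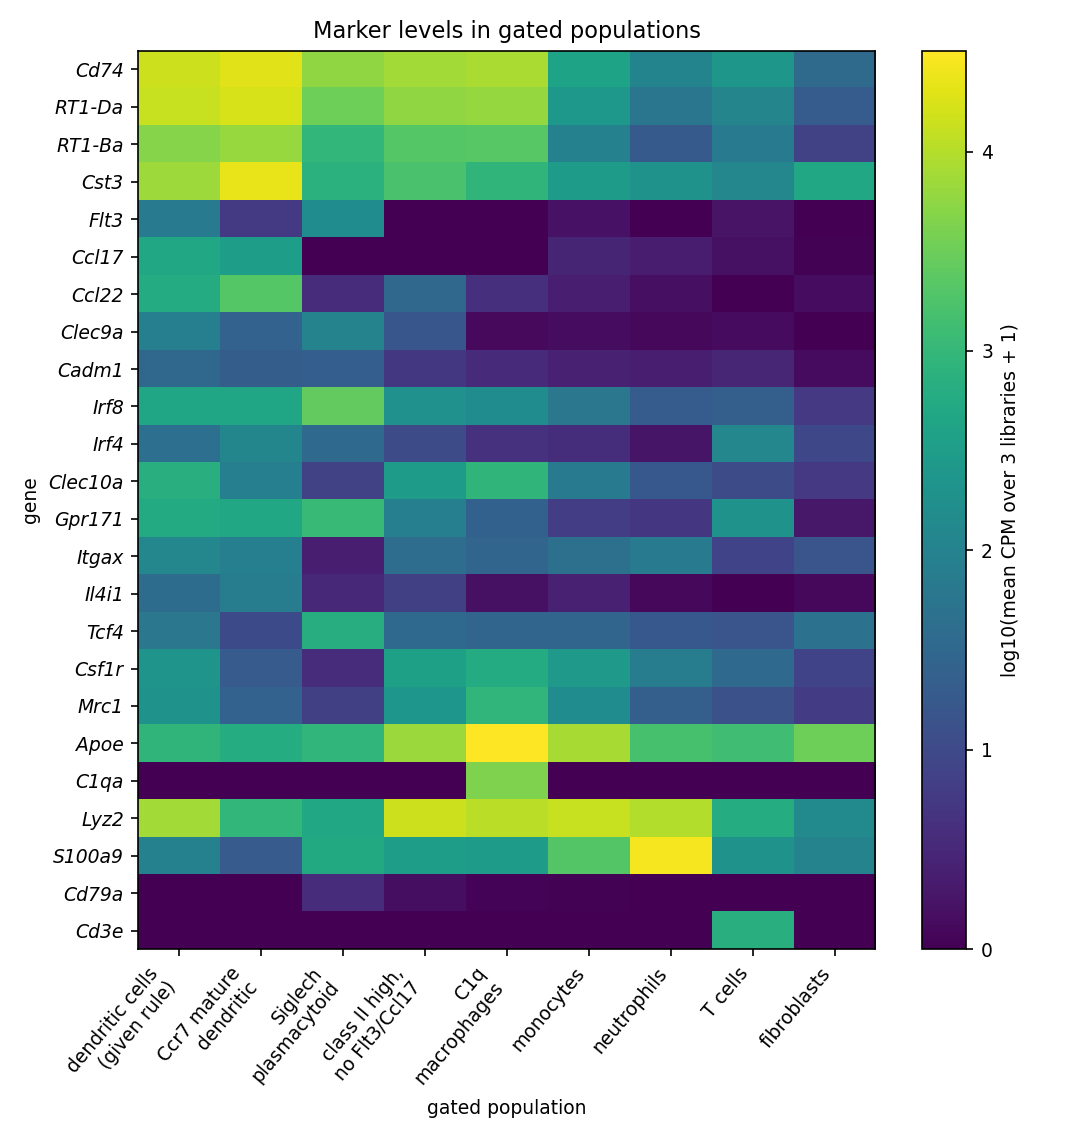
Level of 24 genes (vertical axis) in 9 gated populations (horizontal axis), as the log10 of the mean CPM over the 3 libraries plus 1 (colour). Cd74, Flt3, Ccl17, Ccl22, C1qa, Lyz2, S100a9 and Cd3e were used to gate populations. Clec9a, Cadm1, Irf4 and Gpr171 were at higher levels in the dendritic cells than in the C1q macrophages.

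Against C1q macrophages of the same wounds the dendritic cells had higher cDC1 genes and class II chains, and lower macrophage and lysosome genes. The comparison set 120 members beside 2408 macrophages (969 in CO hydrogel, 991 in hydrogel and 448 in untreated), which had at least 20 Cd74 UMIs, at least 5 C1q UMIs and none of Flt3 or Ccl17. Counts were summed per library and population and tested with edgeR's quasi-likelihood test with library as a block, so the 3 libraries under 3 treatments served as the replicates, with Benjamini-Hochberg adjustment over 8488 genes. At adjusted p under 0.05, 529 genes (6.23%) were higher and 626 (7.38%) were lower in the dendritic cells, and the median log2 difference of all genes was -0.09. Without the CO hydrogel library 315 genes were higher and 340 lower, and without the hydrogel library 319 and 404. Genes that set the gates are not read in what follows. The gates split the populations on C1q, Flt3 and Ccl17, so genes that go with these were bound to differ. Such differences describe the selection in part.

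Clec9a, the cDC1 receptor for actin of dead cells, had the largest log2 difference among the genes chosen by the naming rule. It stood at 124 CPM in CO hydrogel, 71.5 in hydrogel and 60.2 in untreated dendritic cells, against 0.657, 0.194 and 0 CPM in macrophages (log2 difference 8.04, adjusted p = 6.2e-07 by edgeR). All 3 libraries showed the same direction and the populations did not overlap. Cd226, an activating adhesion receptor, averaged 68.3 ± 16.7 CPM in dendritic cells and 0.683 ± 0.552 CPM in macrophages (SD over 3 libraries, log2 difference 6.64, adjusted p = 2.16e-06 by edgeR). Cd7, an immunoglobulin-family receptor of lymphoid cells, averaged 51.5 ± 30.8 and 1.07 ± 0.779 CPM in the same order (log2 difference 5.61). Gpr171, a G protein-coupled receptor, was abundant, at 512, 701 and 460.3 CPM in dendritic cells of the CO hydrogel, hydrogel and untreated libraries against 31.2, 21.8 and 20.7 CPM in macrophages (log2 difference 4.47, adjusted p = 2.15e-07 by edgeR). Gpr171 was not particular to these cells by level, since Siglech plasmacytoid cells of the 3 libraries stood at 952, 1319 and 986 CPM. The other genes with the largest positive differences were Mab21l3, the adaptor Traf4, the VEGF receptor Kdr, the surface protein Cd24, the heparan sulfate sulfotransferase Hs3st1, the surface protein Plet1, the Rab regulator Tbc1d4 and the vitamin D receptor Vdr, with log2 differences between 4.23 and 5.23.

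On the lower side, Apoe, a lipid carrier of macrophages, was at 627 CPM in CO hydrogel, 1462 in hydrogel and 529 in untreated dendritic cells, against 35103, 39049 and 21836 CPM in macrophages (log2 difference -5.33, adjusted p = 8.09e-09 by edgeR). Trem2, a lipid-sensing receptor, averaged 8.16 ± 8.47 CPM in dendritic cells and 289 ± 115 CPM in macrophages (SD, 3 libraries, log2 difference -5.31). Selenop, a selenium transport protein, had 0 UMIs in all members and averaged 61.4 ± 27.8 CPM in macrophages, at least 18.8-fold lower when 3 UMIs over the 3 libraries are taken as the floor. Cd8a, a chain of CD8, had 1 UMI in members, in the untreated library, and averaged 131 ± 27.8 CPM in macrophages. Rarres1, Ccl12, Fcgr3a, Bmp2, Lhfpl2, Cfd, Itgb5 and Rgl1 were the other genes with the most negative differences, with log2 values between -6.85 and -4.09. Among them are a chemokine, Ccl12, an Fc receptor, Fcgr3a, a growth factor, Bmp2, and complement factor D, Cfd. All 24 genes named by the rule kept their call under every alternative run.

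**Figure D3:**
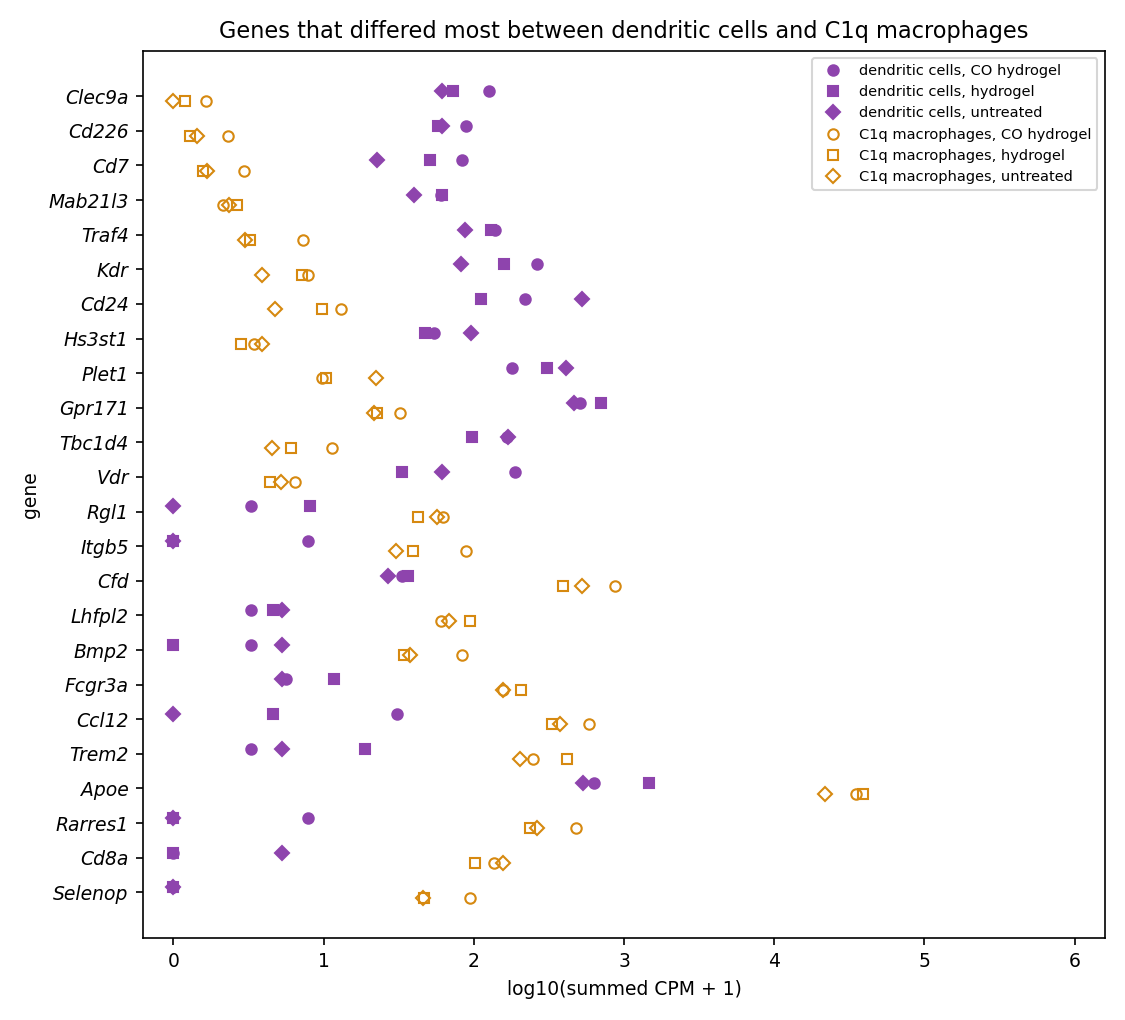
Summed CPM (log10 of CPM plus 1, horizontal axis) of the 24 genes chosen by the naming rule (vertical axis) in dendritic cells (filled) and C1q macrophages (open) of the 3 libraries (marker shape). The 12 upper genes were higher in dendritic cells in each library and the 12 lower genes were lower, with Clec9a at 60.2 CPM or more in each dendritic cell library and at most 0.657 CPM in macrophages.

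Markers of the conventional dendritic cell branches moved unevenly. Of 9 cDC1 genes tested, 7 rose and 0 fell, with a median log2 difference of 1.82 over the 9 against -0.09 for all genes. They were Clec9a, the adhesion molecule Cadm1 (31.1 ± 13.2 CPM in dendritic cells and 2.54 ± 1.88 in macrophages), Wdfy4, which cross-presentation requires, the integrin chain Itgae, the transcription factors Id2 and Irf8, and the lipid hydrolase Naaa. Irf8 was at 429, 539.9 and 339.9 CPM in dendritic cells of CO hydrogel, hydrogel and untreated wounds, against 119, 215 and 121 CPM in macrophages (log2 difference 1.52, adjusted p = 0.000192 by edgeR). It was in 25 of 63, 25 of 31 and 14 of 26 members in the same order. Its highest counts, 33, 17 and 23 UMIs, were in members kept for Flt3 alone, with 29, 89 and 27 Cd74 UMIs. The adjusted p of Naaa was 0.0928 without the hydrogel library, and that of Itgae 0.0618 without the CO hydrogel library. Of 11 cDC2 genes tested, 2 rose, the transcription factor Irf4 (log2 difference 3.67) and the lipid antigen molecule Cd1d1, and 4 fell, namely Sirpa, Cd4 and the lectins Clec4a1 and Clec4a3. Without the CO hydrogel library the adjusted p was 0.284 for Cd1d1 and 0.202 for Sirpa. Clec10a averaged 655 ± 355 CPM in dendritic cells and 903 ± 592 CPM in macrophages and did not pass the test (adjusted p = 0.22 by edgeR). All 5 tested genes of the list common to conventional dendritic cells rose: Bcl11a, Dpp4, Cst3, Itgax and Csf2rb. Cst3, cystatin C, an inhibitor of cysteine proteases, was the most abundant of them, at 11455, 6701 and 3085 CPM in CO hydrogel, hydrogel and untreated dendritic cells against 1417, 672 and 566 CPM in macrophages. The calls of Bcl11a and Csf2rb were lost when 1 library was left out, with adjusted p = 0.131 without the untreated library and 0.0587 without the hydrogel library by edgeR.

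Antigen presentation genes were split between the chains and the proteases. Of 14 class II genes tested, 7 rose, and all of these were chains: RT1-Da and RT1-Db1 of the rat D molecule, RT1-Ba and RT1-Bb of the B molecule, the RT1-DOa and RT1-DOb chains that regulate peptide loading, and RT1-Ha. RT1-Da was at 16681, 12758 and 10299 CPM in CO hydrogel, hydrogel and untreated dendritic cells against 7278, 5254 and 5998 CPM in macrophages (log2 difference 1.05, adjusted p = 0.000184 by edgeR). RT1-DOb, the chain gene without the Y box letters, averaged 57.2 ± 5.66 CPM in dendritic cells and 8.62 ± 2.99 CPM in macrophages (log2 difference 2.73). The log2 differences of RT1-Db1, RT1-Ba, RT1-Bb, RT1-DOa and RT1-Ha were 0.99, 1.14, 1.40, 2.75 and 3.16, and RT1-Ha did not pass without the CO hydrogel library (adjusted p = 0.118). Both populations had at least 20 Cd74 UMIs by their gates, and class II chains are a family of like sequences, so reads may be split among members of the family. The 3 genes that fell were proteases that trim the invariant chain or antigen: Lgmn (151 ± 84.2 CPM in dendritic cells and 1297 ± 115 in macrophages), Ctsl and Ctss, of which Ctss missed the threshold without the CO hydrogel library (adjusted p = 0.152). In the wider list of lysosomal genes, 16 of 18 fell and only Cst3 rose, with a median log2 difference of -1.58. Of 14 class I genes, 0 passed in either direction.

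Of 15 costimulation and checkpoint genes tested, 5 rose (Slamf7, Cd86, Cd80, Havcr2 and Cd48) and 3 fell (Lgals9, Vsir and Slamf8). The calls of Cd48 and Slamf8 were lost without the CO hydrogel library (adjusted p = 0.209 and 0.182 by edgeR) and without the hydrogel library (0.295 and 0.221). Cd86 and Cd80, ligands of Cd28, rose by log2 2.31 and 2.27, with Cd86 at 239.7, 225 and 202 CPM in CO hydrogel, hydrogel and untreated dendritic cells against 43.0, 41.1 and 47.9 CPM in macrophages. They were 2 of the 4 genes that rose among 16 maturation genes tested, the others being Il4i1 and Cacnb3, and 0 fell. Cacnb3 missed the threshold with any of the libraries left out (adjusted p between 0.0537 and 0.0974 by edgeR). Of 19 chemokine ligands, 7 fell and 0 rose; Ccl2 and Ccl7, which draw monocytes, and Cxcl2, which draws neutrophils, were among those that fell. Ccl2 averaged 3081 ± 2062 CPM in dendritic cells and 4680.4 ± 1756 CPM in macrophages, and its call was lost without the hydrogel library (adjusted p = 0.130). The call of Cxcl2 was lost without the CO hydrogel library (adjusted p = 0.111). Ccl22, a ligand of Ccr4 like Ccl17, helped define another gate and was therefore not eligible for naming; it is given after its values were seen. It was at 535, 797 and 465 CPM in CO hydrogel, hydrogel and untreated dendritic cells against 2.79, 2.32 and 4.45 CPM in macrophages, and was in 13, 7 and 7 members. In the hydrogel library 1 cell held 180 of the 223 Ccl22 UMIs.

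Transcription factors and trafficking receptors gave mixed counts. Of 18 dendritic cell transcription factors, 7 rose and 3 fell, the risers including Nr4a3 (430.3 ± 145 CPM in dendritic cells and 70.3 ± 13.7 in macrophages) and Runx3, and those that fell including Zeb2 and Cebpb, which macrophages and monocytes use. Of 6 plasmacytoid genes tested, Tcf4 and Runx2 rose by log2 1.01 and 2.97, Tlr7 fell by 2.53 on the log2 scale and 3 did not pass, with a median of -0.41 over the 6. Tcf4 was lost without the hydrogel library (adjusted p = 0.236). Of 14 trafficking receptors, 7 rose, among them the gut-homing integrin chain Itgb7 (log2 difference 3.01), and 2 fell, the complement receptor C5ar1 and Cxcr4. Of 15 cytokines, Areg, Tgfb1 and Il1b rose and Il10 fell. Il1b was at 4023, 7051 and 7193 CPM in dendritic cells of CO hydrogel, hydrogel and untreated wounds against 2475, 3898 and 5414 CPM in macrophages, and it did not pass without the CO hydrogel library (adjusted p = 0.125) or without the hydrogel library (0.0991). Of 16 macrophage genes not used by the gates, 15 fell, with a median log2 difference of -3.43. The macrophages were chosen for C1q and the members for its absence, so this fall is no independent support for the selection. Of 15 heme and antioxidant genes, 7 fell, including the heme-degrading enzyme Hmox1, the biliverdin reductase Blvrb and the ferritin chain Ftl1, and the cystine transporter Slc7a11 rose. Of 18 dissociation and stress genes, 8 fell and 1 rose. The neutrophil markers summed to 141, 1316 and 533 CPM in CO hydrogel, hydrogel and untreated members against 356, 1295 and 1649 CPM in macrophages, and their part in these differences was not tested.

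The 120 members were not uniform. Clec9a was in 20 of 63 CO hydrogel, 6 of 31 hydrogel and 2 of 26 untreated members, or 31.7%, 19.4% and 7.69%, and after thinning each cell to 3000 UMIs in 23.0%, 13.3% and 8.0%. Fibroblasts had 0 cells with a Clec9a UMI in each library, which allows shares of up to 0.146%, 0.365% and 0.425% at median depths of 9335.5, 13826 and 16789.5 UMIs in CO hydrogel, hydrogel and untreated. Clec10a was in 51 CO hydrogel, 13 hydrogel and 13 untreated members, and after thinning in 75.4%, 26.7% and 44.0% of members against 2.63%, 0.502% and 0.604% of fibroblasts. Both lectins were found in 15, 4 and 1 members, Clec10a alone in 36, 9 and 12, Clec9a alone in 5, 2 and 1, and neither in 7, 16 and 12. These subsets were formed after the values were seen and carry no test. The 15 members with 3 or more Clec9a UMIs had 623 CPM of Naaa, 436 CPM of Wdfy4 and 85.7 CPM of Cadm1, against 35.5, 44.9 and 7.10 CPM in members with Clec10a but no Clec9a. Cst3 was at 21445 CPM in the same 15 cells and at 2845 CPM in the Clec10a cells without Clec9a, while Lyz2, lysozyme, was at 1698 and 12819 CPM in the same order.

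**Figure D4:**
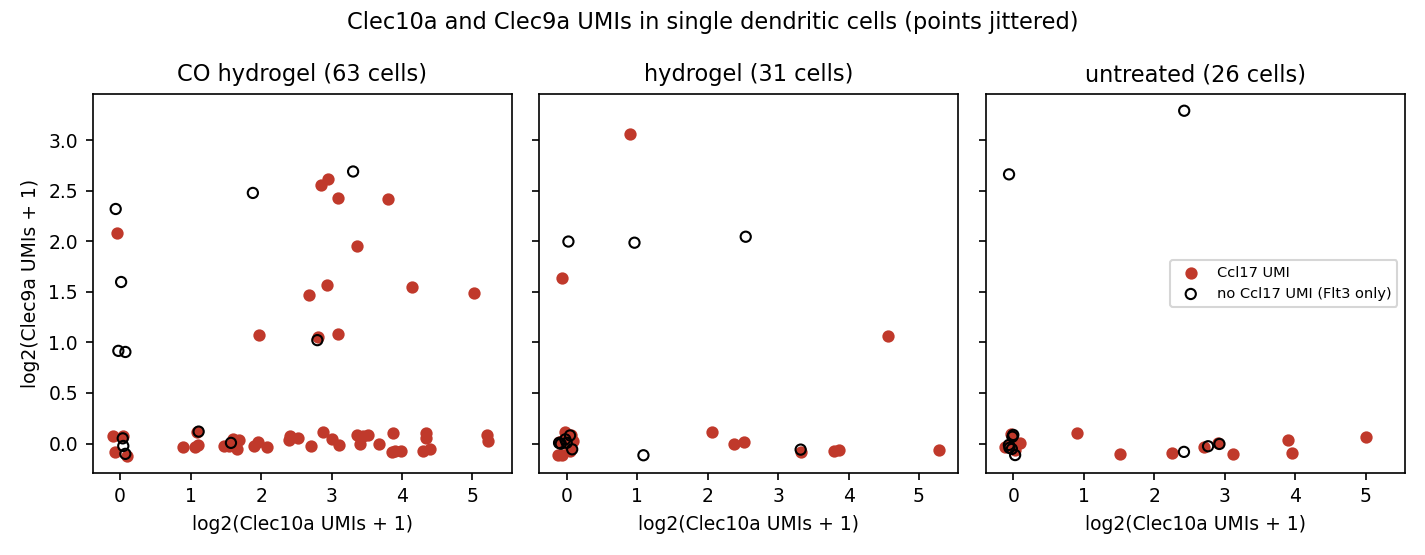
UMIs of Clec9a (vertical axis) against Clec10a (horizontal axis), both as the log2 of UMIs plus 1, in the single members of each library, with points jittered. Filled points are cells with a Ccl17 UMI and open points are cells kept for Flt3 alone. Clec9a was seen in 20 of 63 cells of CO hydrogel, 6 of 31 of hydrogel and 2 of 26 of untreated.

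A few cells carried marks of other states. Mki67, a proliferation marker, was in 4 CO hydrogel, 1 hydrogel and 0 untreated members. Cd207, langerin, which Langerhans cells use, had 0 UMIs in CO hydrogel, 1 in hydrogel and 163 in untreated members, and the 163 UMIs came from 2 cells with 122 and 41. The 7 Langerhans markers summed to 256, 544 and 2108 CPM in CO hydrogel, hydrogel and untreated members. Each library had 2 of the 7 at 0, not the same 2 throughout, and 6 were detected in at least 1 library. Mfge8, a milk fat globule protein and one of them, had 46, 80 and 262 UMIs in the same order, with 135 of the 262 in 1 untreated cell.

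Members with Ccl17 and members kept for Flt3 alone differed in 42 of the genes tested, among them Fn1, Ccl4, Ccl7, Ccl2 and Cebpb. The comparison set 51, 20 and 15 Ccl17 positive cells of CO hydrogel, hydrogel and untreated against 12, 11 and 11 Ccl17 negative cells, with summed counts and edgeR's quasi-likelihood test with library as a block. Of 1618 genes tested, 34 (2.1%) were higher and 8 (0.494%) lower in Ccl17 positive cells at adjusted p under 0.05, and the median log2 difference was 0.03. Ccl17 and Flt3 are among the 42 by the rule. The subsets were split on Ccl17, and all Ccl17 negative cells had Flt3 by the rule. Genes that go with either were therefore bound to differ, and such differences describe the split in part. Without the block, 2 genes were higher and 1 was lower, without the hydrogel library 69 were higher and 44 lower, and without the untreated library 22 and 4.

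Fn1, fibronectin, had the largest positive difference among the genes chosen by the naming rule, at 2135, 487 and 3480.3 CPM in Ccl17 positive cells of CO hydrogel, hydrogel and untreated against 152, 22.0 and 109 CPM in Ccl17 negative cells (log2 difference 4.51, adjusted p = 0.00223 by edgeR). Of 12 chemokine ligands tested 3 rose and 0 fell: Ccl4, Ccl7 and Ccl2, by log2 3.94, 3.64 and 3.12. Ccl4 was at 416, 603 and 394 CPM in Ccl17 positive cells against 33.9, 22.0 and 39.8 CPM in Ccl17 negative cells of the same libraries (adjusted p = 0.00887 by edgeR), and was the only one of the 24 named genes to keep its call under every alternative. Of 6 monocyte genes tested, the transcription factor Cebpb and lysozyme, Lyz2, rose by log2 2.92 and 2.50 and 0 fell. The call of Lyz2 was lost after thinning (adjusted p = 0.0815 by edgeR) and without shared barcodes (0.0642), and Plac8 had a log2 difference of -1.90 (adjusted p = 0.155 by edgeR). Other genes that rose were the oxidized lipoprotein receptor Olr1, the heme synthesis enzyme Alas1, lipoprotein lipase Lpl, the stress gene Zfand2a, the cell cycle regulator Rgcc, the phosphatase Dusp2, the peroxidase Prdx5, the lectin Lgals3, the annexin Anxa5, Emp3, Ftl1, Crip1 and S100a10. Clec10a, at 1177, 577 and 637 CPM in Ccl17 positive cells against 355, 176 and 209 CPM in Ccl17 negative cells, was the only one of 4 tested cDC2 genes to rise (log2 difference 1.77, adjusted p = 0.0181 by edgeR), and it missed the threshold without the untreated library (0.0674). With each library left out in turn, the calls of Fn1, Ccl4, Ccl2, Ccl7, Cebpb, Alas1, Prdx5 and Cyb561a3 were kept and those of the other 16 named genes were lost at least once.

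On the Ccl17 negative side stood Cyb561a3, a lysosomal ferric reductase (7.10 ± 8.16 CPM in Ccl17 positive and 300.2 ± 268 CPM in Ccl17 negative cells), and Blnk, an adaptor of B cell receptor signalling (7.84 ± 2.63 and 213 ± 110.0 CPM in the same order). Blnk fell by 4.71 on the log2 scale with adjusted p = 0.0141 by edgeR, and its call was lost without the untreated library (0.0556). The B cell list, which holds Blnk, summed to 389, 154 and 189 CPM in Ccl17 negative cells. It summed to 876, 922 and 812 CPM in Siglech plasmacytoid cells. The most Blnk UMIs, 14, were in 1 CO hydrogel and 1 untreated cell, with 29 and 27 Cd74, 33 and 23 Irf8 and 4 and 2 Tcf4 UMIs. Whether such cells are plasmacytoid cells without a captured Siglech UMI was not tested. Ap1s2, a clathrin adaptor chain, Spn, sialophorin, Gpr171 and Errfi1, a receptor feedback inhibitor, were the other named genes that fell. Irf8 was at 240.2, 413 and 91.0 CPM in Ccl17 positive cells and at 1625, 805 and 666 CPM in Ccl17 negative cells, and missed the threshold (adjusted p = 0.0634 by edgeR). By edgeR it passed without the hydrogel library (4.67e-09), after thinning (0.0426), with 1 excluded UMI allowed (0.00359) and with no filter beyond 1 UMI (0.000391). It also passed with DESeq2 (0.00285). Tcf4, at 32.1 ± 9.32 CPM and 149 ± 57.0 CPM in the same order, also missed the threshold (adjusted p = 0.0973 by edgeR). It passed with no filter beyond 1 UMI (0.0384) and with 1 excluded UMI allowed (0.00583). Plasmacytoid markers summed to 184, 196 and 114 CPM in Ccl17 positive cells and to 1236, 441 and 448 CPM in Ccl17 negative cells of CO hydrogel, hydrogel and untreated, with Siglech at 0 by the rule. In Siglech plasmacytoid cells they summed to 3414, 3129 and 2803 CPM, Siglech included. Monocyte markers summed to 15858, 14937 and 21944 CPM in Ccl17 positive cells and to 5111, 5169 and 13534 CPM in Ccl17 negative cells. Macrophage markers summed to 1945, 4690 and 7491 CPM in Ccl17 positive cells and to 1354, 1190 and 3520 CPM in Ccl17 negative cells. The part of these marker groups in the differences was not tested.

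Between the wounds, the dendritic cells of the CO hydrogel library had higher Ccl7 and Ccl2, which draw monocytes, and lower Cxcl9, Cxcl11, heme and hypoxia genes than those of the hydrogel library. Of 1880 genes with at least 50 UMIs over both, 100 (5.32%) were at least 2-fold higher and 114 (6.06%) at least 2-fold lower in CO hydrogel, with a median log2 ratio of -0.01. Genes named here and below for the highest or lowest ratios had at least 100 UMIs over both libraries. Ccl7 was at 1459 CPM in CO hydrogel and 150.2 CPM in hydrogel members (log2 ratio 3.28, exact 95% interval 2.83 to 3.77), and was found in 35 of 63 and 7 of 31 cells. Lipoprotein lipase Lpl was at 1614 and 175 CPM in the same order, though 87.8% of the hydrogel UMIs were in 1 cell. Properdin, Cfp, was at 343 CPM in CO hydrogel and 46.5 CPM in hydrogel, and the complement inhibitor Cd59 at 747 and 104 CPM. Gprc5d, Oasl, Ccl2 and Fn1 were the other genes with the highest ratios. In C1q macrophages of the same libraries Ccl7 and Ccl2 had log2 ratios of 1.07 and 1.17, against 3.28 and 2.59 in the dendritic cells. There the log2 ratio of Fn1 was 0.11, against 2.47 in the dendritic cells, and that of Cd59 was 0.23, against 2.85.

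The lowest ratios were those of Cxcl11 and Cxcl9, which draw cells with Cxcr3. Cxcl11 had 4 UMIs in CO hydrogel and 395 in hydrogel members, or 9.22 and 1412 CPM (log2 ratio -7.26, interval -9.14 to -5.89). Cxcl9 had 4 and 149 UMIs, of which 47.0% of the hydrogel UMIs were in 1 cell, and Acod1, which makes itaconate, had 6 and 133. C1q macrophages also had lower values of all 3 in CO hydrogel than in hydrogel, with 48.0 and 481 CPM of Cxcl11, 24.1 and 169 CPM of Cxcl9 and 2.14 and 158 CPM of Acod1. Vegfa, the vascular growth factor, was at 25.4 CPM in CO hydrogel and 329 CPM in hydrogel members, and Alas1, Arg1, Gngt2 and Il1rn had log2 ratios between -3.45 and -2.70. Arg1 was in 8 of 31 hydrogel members, and 52.8% of its hydrogel UMIs were in 1 cell. By list, 6 of 9 heme and antioxidant genes (Sod2, Slc7a11, Fth1, Nqo1, Hmox1 and Prdx1) and 6 of 13 hypoxia and glycolysis genes (Vegfa, Pkm, Ero1a, Slc2a1, Hif1a and Pgk1) were at least 2-fold lower in CO hydrogel and 0 of either list were higher. Of 7 macrophage genes, Arg1, Gpnmb, Apoe and Cd14 were lower too and 0 higher, and that list summed to 1865 CPM in CO hydrogel and 3554 CPM in hydrogel members. Its part in the ratios was not tested. Of 14 chemokine ligands, 3 were higher (Ccl7, Ccl2 and Ccl6) and 5 lower (Cxcl11, Cxcl9, Ccl9, Cxcl16 and Cxcl3). In CO hydrogel and hydrogel, heme and antioxidant genes summed to 10046 and 22581 CPM in members and 29798 and 48337 CPM in C1q macrophages. They summed to 15810 and 48157 CPM in class II high cells with no UMI of Flt3, Ccl17 or the excluded genes. Siglech plasmacytoid cells stood at 20822 and 21865.5 CPM. The lower sum was thus not particular to the members. Vegfa was at 115 and 277 CPM in C1q macrophages of the same libraries. Fth1, ferritin heavy chain, was in every member of the 3 libraries, at 5782 CPM in CO hydrogel, 14428 CPM in hydrogel and 14004 CPM in untreated. Class II genes stayed mostly within 2-fold: 0 of 8 were higher and 1, RT1-DOa, was lower. Neutrophil genes S100a8, S100a9 and G0s2 were at least 2-fold lower in CO hydrogel, where the whole marker list summed to 141 CPM against 1316 CPM in hydrogel, and 57 of the 62 S100a9 UMIs in hydrogel were in 1 cell.

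**Figure D5:**
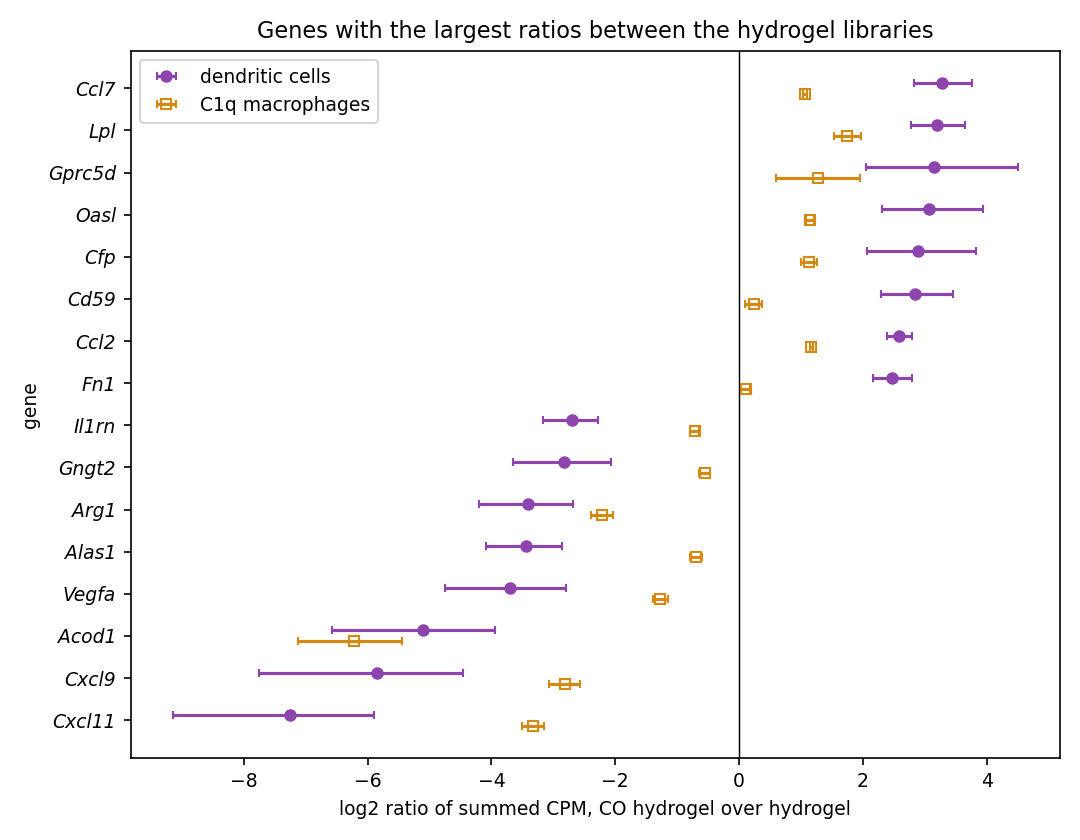
Log2 ratio of summed CPM, CO hydrogel over hydrogel (horizontal axis), for the 16 genes chosen by the naming rule (vertical axis), in dendritic cells (filled circles) and C1q macrophages (open squares). Bars are exact 95% intervals that cover counting error only. Ccl7 stood highest in dendritic cells at 3.28 and Cxcl11 lowest at -7.26.

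Set against the untreated wound, CO hydrogel dendritic cells had higher interferon-induced and cDC1 genes and lower cytokine and heme genes and Cxcl3. Of 1760 genes, 127 (7.22%) were at least 2-fold higher and 106 (6.02%) at least 2-fold lower, with a median log2 ratio of 0.07. Lpl was at 1614 CPM in CO hydrogel and 86.0 CPM in untreated members (log2 ratio 4.23, interval 3.59 to 4.95). Of the genes with at least 100 UMIs that the naming rule took, Layn had the highest ratio, with 145 UMIs in CO hydrogel and 3 in untreated, but 55.9% of the 145 were in 1 cell. Gprc5d, Oasl, Cd59, Rnd3, Cxcl10 and Ccnd1 followed. In C1q macrophages of the same libraries the interferon-induced Oasl and Cxcl10 had log2 ratios of 1.28 and 1.75, against 2.62 and 2.23 in the dendritic cells. Of 7 interferon response genes 6 were higher, among them Gbp5, a guanylate-binding protein, with 88 UMIs in CO hydrogel and 0 in untreated. Of 6 cDC1 genes, Rab7b, Wdfy4, Naaa and Clec9a were higher and 0 lower, beside 20 members of CO hydrogel and 2 of untreated with a Clec9a UMI. Of 5 fibroblast genes 4 were higher too, and that list summed to 1646 CPM in CO hydrogel and 620 CPM in untreated members, whose part in the ratios was not tested.

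On the lower side, the neutrophil chemokine Cxcl3 was at 389.6 CPM in CO hydrogel and 12472 CPM in untreated members (log2 ratio -5.00, interval -5.23 to -4.78). It was in 21 of 63 and 19 of 26 cells, and in C1q macrophages it was at 1337 and 7532 CPM. Of 12 chemokine ligands, 6 were lower (Cxcl3, Ccl3, Cxcl1, Cxcl2, Ccl24 and Cxcl16) and Cxcl10 and Ccl6 were higher. Platelet factor 4, Pf4, had 10 UMIs in CO hydrogel and 264 in untreated members, or 23.1 and 1136 CPM. Hmox1, which degrades heme and itself releases carbon monoxide, was at 53.0 CPM in CO hydrogel and 809 CPM in untreated, with 84 of the 188 untreated UMIs in 1 cell. Of 9 heme and antioxidant genes 7 were at least 2-fold lower and 0 higher, and of 10 cytokine genes 6 were lower (Osm, Il1rn, Areg, Il1a, Il6 and Il18) and Hbegf, an EGF-family ligand, was higher. In CO hydrogel and untreated, heme and antioxidant genes summed to 10046 and 21812 CPM in members and 29798 and 42000 CPM in C1q macrophages. Siglech plasmacytoid cells stood at 20822 and 15716.5 CPM. Arg1, Gpr183, Mfge8 and Osm were also among the 8 lowest ratios, at log2 values between -3.60 and -3.27. The untreated members also had the highest macrophage marker sum, 5773 CPM against 1865 CPM in CO hydrogel, and Pf4 is on that list; its part in the ratios was not tested.

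Set against the untreated wound, hydrogel dendritic cells had higher interferon-induced genes and lower summed levels of Pf4, Cxcl3 and Hmox1. Of 1402 genes, 77 (5.49%) were at least 2-fold higher and 70 (4.99%) at least 2-fold lower in hydrogel members, with a median log2 ratio of 0.08. Irf1, a transcription factor induced by interferon, was at 476 CPM in hydrogel and 25.8 CPM in untreated members (exact 95% interval of the log2 ratio 3.04 to 5.68), in 21 of 31 and 6 of 26 cells. It was 1 of 5 genes that were higher among 7 interferon response genes, and 0 were lower. Cxcl9, Cxcl10 and Cxcl11 were higher by log2 4.95, 3.23 and 3.72, and the guanylate-binding protein Gbp2, Acod1, Nampt and the immunoproteasome subunit Psmb9 were also among the 8 highest. C1q macrophages of the same libraries went the same way, with log2 ratios of 4.93, 1.16 and 3.31 for Cxcl9, Cxcl10 and Cxcl11. There Irf1, Gbp2 and Psmb9 had 1.57, 2.42 and 1.80. Pf4, Cxcl3 and Hmox1 had -1.56, -2.18 and -0.40 in the macrophages, against -7.31, -3.75 and -2.82 in the dendritic cells. Hmox1 was nevertheless in a larger share of hydrogel members (16 of 31) than of untreated members (11 of 26). Of the untreated Hmox1 UMIs, 44.7% were in 1 cell. Of 10 class I genes, Tap1, which carries peptides into the endoplasmic reticulum, and the immunoproteasome subunits Psmb9 and Psmb10 were higher and 0 lower. Of 15 chemokine ligands 4 were higher and 8 lower, the lower ones including Cxcl3, Ccl7, Ccl2 and Cxcl2. Pf4, Cxcl3, Ctsl, Hmox1, Fn1, Ccl7 and Thbs1 were among the 8 lowest ratios; 50.6% of the Fn1 UMIs and 45.5% of the Ctsl UMIs of untreated members were in 1 cell each. Of 10 macrophage genes 2 were higher and 5 lower, and the list summed to 3554 CPM in hydrogel and 5773 CPM in untreated members, whose part in the ratios was not tested. The 3 comparisons share libraries and are not independent of each other.

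The main class II chains varied less between wounds than Cst3. Cst3 was found in 62 of 63, 29 of 31 and 24 of 26 cells. RT1-Da, RT1-Db1 and RT1-Ba were in every member, with RT1-Da at 16681, 12758 and 10299 CPM, and their ratios between wounds lay under 2-fold. RT1-DOa was at 53.0, 118 and 51.6 CPM in CO hydrogel, hydrogel and untreated, from 23, 33 and 12 UMIs. Hydrogel and untreated together held under 50 RT1-DOa UMIs, so no ratio was read between them.

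Ccr7 mature dendritic cells, the form that leaves for the lymph node, were too few for a test, with 2 in CO hydrogel, 9 in hydrogel and 8 in untreated. Ccl22 was at 535, 797 and 465 CPM in class II high dendritic cells of CO hydrogel, hydrogel and untreated, and at 667, 438 and 5246 CPM in the Ccr7 cells. The gate of the Ccr7 cells asked for a UMI of Ccl22 or Fscn1, so their Ccl22 levels describe the selection in part. Siglech plasmacytoid cells, 34, 43 and 7 in number, had 146, 205 and 116 CPM of Flt3 and 95.2, 102 and 116 CPM of Clec9a, against 73.8, 82.2 and 55.9 CPM of Flt3 and 124, 71.5 and 60.2 CPM of Clec9a in the class II high dendritic cells. Clec9a was therefore not limited to the members: they held 22.2%, 11% and 23.0% of the Clec9a UMIs of the CO hydrogel, hydrogel and untreated libraries. The cDC1 list was not particular to the members either, at 1459, 1602 and 856 CPM. It summed to 2735, 2646 and 2977 CPM in the Siglech cells and 2122, 1640 and 1013 CPM in the Ccr7 cells. The class II list, of which the gates used 1 gene, summed to 58119.5, 43198 and 38728 CPM in members. It summed to 89057, 25484 and 70881 CPM in the Ccr7 cells and 17871, 17138.5 and 16586 CPM in the Siglech cells.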

How the data were processed

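Droplet libraries (10x Genomics 3' v3.1) of cells from wound skin were analysed. The deposited values are raw UMI counts per gene and barcode. Per the file headers the software was Cell Ranger 6.0.1. Cell Ranger 7.0.0, build rn6, DESeq 1.38.0 and Seurat 4.2.0 are listed per the submitters' processing notes; the filtering that made the matrices is not given in the sources used here. Total deposited counts were 109718517 UMIs in CO hydrogel, 109148721 in hydrogel and 78233883 in untreated. Dendritic cells were gated as described, and other populations by fixed marker counts; no clustering was done. Shares have exact Clopper-Pearson intervals and ratios exact conditional binomial intervals, which cover counting error only at 95%. Intervals assume independent molecules. Scrublet scores marked doublets at 0.8% per 1000 barcodes; marked cells were kept and left out as an alternative.

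Counts were summed per library and population and tested with edgeR 4.0.16 (filterByExpr, TMM, quasi-likelihood). Library was the block, since both populations come from the same wound. DESeq2 1.42.0 was an alternative. Ccl17 subsets were tested from 10 cells, set after no library held 20 cells of both. The test against Ccr7 cells was not run for want of 20 cells. In data simulated on the macrophage comparison (8488 genes), 27% of changes of log2 1 and 76% of changes of log2 2 were recovered. For the Ccl17 comparison (1618 genes) these were 29% and 93%. False calls numbered 0 and 4 in the same order. The simulated counts had 1 common dispersion for all genes and no gene differences between libraries, so recovery in the real data may be lower.

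The naming rule took, in tested contrasts, the 12 largest and 12 smallest log2 differences with adjusted p under 0.05, the same sign in each library and at least 50 CPM in the higher population. In the Ccl17 contrast, where few genes were lower, this gave 18 higher and 6 lower. In library pairs it took the 8 highest and 8 lowest ratios with at least 100 UMIs and a UMI in 10% of members, leaving out genes over 5 times higher in another cell type. Other genes come from 30 lists. Some genes that enter the counts are not reported here by name. Members and lists were chosen with earlier results of these data known. Promoter sequences are from RefSeq (GRCr8); gene levels use the deposited annotation.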

Additional observations from a re-analysis of the deposited data

How the results depend on the processing

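No tested difference or named ratio changed sign under any alternative run. With 1 UMI over the excluded genes allowed, member shares were 0.757% in CO hydrogel, 0.362% in hydrogel and 0.393% in untreated. Thinning gave 0.631% in CO hydrogel and 0.412% in untreated, and a stricter cell filter 0.335% in untreated. With ratios from 20 UMIs up, genes at least 2-fold higher and lower numbered 275 and 305 for CO hydrogel over hydrogel, 378 and 276 for CO hydrogel over untreated, and 250 and 197 for hydrogel over untreated; with 1 excluded UMI allowed, 241 were higher in CO hydrogel and 130 in hydrogel, each against untreated. With TMM factors, higher and lower genes numbered 124 and 105 for CO hydrogel over hydrogel and 65 and 82 for hydrogel over untreated, so the larger side changed in both. Of the 16 named ratios of each pair, 1 excluded UMI allowed moved 2 for CO hydrogel over hydrogel, 5 for CO hydrogel over untreated and 10 for hydrogel over untreated beyond their intervals, and the mean of per-cell CPM moved 1, 3 and 5. Over all alternatives 4, 12 and 20 values moved.

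Against macrophages, lower genes numbered 399 with DESeq2 and 414 with no replicate block, and higher genes 851 with 1 excluded UMI allowed. With each library left out, higher genes numbered 315 to 638 and lower genes 340 to 756; the lowest counts came without the CO hydrogel library. In the Ccl17 contrast, DESeq2 gave 15 lower genes, no filter beyond 1 UMI gave 162 higher and 45 lower, no replicate block gave 2 and 1, 1 excluded UMI allowed gave 165 and 78, and thinning gave 16 higher. With each library left out, 22 to 69 genes were higher and 4 to 44 lower, the highest counts without the hydrogel library. The cause was not tested.

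Limits: 1 library per treatment gives no test between wounds, 120 cells leave low genes uncertain, and single cells hold large shares of some counts. Alternatives for the Ccr7 comparison were not run, since it had too few cells. Fitting the Ccl17 subsets from 10 cells and leaving out shared barcodes in the tested contrasts were chosen after seeing the data.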
